A study of Tupaia belangeri with 2 samples.

Results

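Radial glia that carried PAX6 or GLI3 and few transcripts of dividing cells were examined in the embryonic brain of the tree shrew (Tupaia belangeri). They were selected on their own UMI counts (UMIs are counted transcript molecules) by a rule on 19 genes. A barcode needed at least 500 detected genes and at least 4 of the 7 radial glia genes FABP7, GLI3, NES, PAX6, SLC1A3, TNC and VIM, with PAX6 or GLI3 among them. It could hold at most 1 of the 6 division genes MKI67, TOP2A, CENPF, PRC1, NUSAP1 and UBE2C, and at most 2 of the 6 astroglial genes BCAN, VCAM1, SLC7A10, SPON1, CLU and SLC39A12. The rule found 201 cells among the 15998 barcodes with at least 500 genes and the 18926 barcodes in all. They are called low-division radial glia here, because genes of DNA replication, described below, went against the label "non-dividing".

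The samples were the whole brains of 2 embryos at 4 to 5 post-conceptional weeks, and 1 library per embryo was made with 10x Chromium chemistry. No strain, genotype or treatment was given, and no condition was compared between the embryos. Dura and vessels had been taken off the tissue before dissociation, and all regions of the brain were mixed.

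Radial glia are the neural stem cells of the embryonic brain. Their cell bodies line the ventricle, their fibres span the wall of the brain, and they renew themselves or give rise to neurons and later to glia. PAX6 is a transcription factor of dorsal forebrain, hindbrain and spinal progenitors, and GLI3 is a transcription factor that represses or activates the targets of Hedgehog signalling. Their nuclei move with the cell cycle, and DNA is replicated away from the ventricle before the cell divides at the ventricular surface.

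Embryo 1 held 99 low-division radial glia among 7177 barcodes with at least 500 genes, a share of 1.38% (exact 95% binomial interval 1.12 to 1.68). Embryo 2 held 102 among 8821, a share of 1.16% (0.944 to 1.40). The mean share was 1.27% ± 0.158 (SD, n = 2 embryos), and the intervals, which cover counting error only, overlapped. The cells summed to 482913 UMIs in embryo 1 and 461234 in embryo 2. Their medians were 4425 and 4169.5 UMIs and 1395 and 1361 genes per cell. The libraries shared 18 barcode sequences, none of them (0) among these cells.

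The rule rests on detection, which can depend on depth. PAX6 or GLI3 was detected in 822 and 726 barcodes of embryos 1 and 2, and 407 and 356 of these also reached 4 of the 7 radial glia genes. Of the latter, 302 and 249 held 2 or more division genes, with medians of 6121 and 6297 UMIs. Just outside the limit on division genes, 41 and 32 barcodes held exactly 2 of them. Just outside the limit on radial glia genes, 106 and 97 held 3 of the 7, with medians of 4043.5 and 3851 UMIs. Just inside, 58 and 56 cells held 4 radial glia genes, 26 and 37 held 5, 15 and 9 held 6, and none (0) held all 7. Their median depth had no common order with the number of these genes (4135, 4681.5 and 4496 UMIs in embryo 1 and 4331.5, 4002 and 4291 in embryo 2 for 4, 5 and 6 genes). Division genes were absent from 42 and 54 of the cells, while 57 and 48 held 1 of them, at medians of 4470 and 3965.5 against 4284 and 4371 UMIs.

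The genes of the rule are given as a description, since they chose the cells. Levels are given as CPM, the UMIs of a gene scaled to a total of 1000000 UMIs for the class in an embryo. VIM, an intermediate filament protein, was detected in every selected cell (99 of 99 and 102 of 102) and stood at 2141 and 1787 CPM. FABP7, the brain fatty acid-binding protein, was detected in 94 and 97 cells. PAX6 was detected in 68 and 72 cells (180.2 and 199 CPM) and GLI3 in 54 and 46 (122 and 113 CPM). NES, the intermediate filament nestin, was found in 77 and 79 cells. SLC1A3, a glutamate transporter, was found in 42 and 45, and TNC, the matrix protein tenascin C, in 18 and 22. Of the division genes the most often detected was TOP2A, in 21 and 22 cells. NUSAP1 was found in 1 cell of each embryo.

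In embryo 1, 1 of the cells stood apart. Haemoglobin made up 70.7% of its 18501 UMIs, and it carried both PAX6 and GLI3. With it, haemoglobin took 2.91% of the UMIs of low-division radial glia in embryo 1. Without it the share was 0.208%, beside 0.0711% in embryo 2. The tests below were therefore repeated on filtered cells, without barcodes of at least 1% haemoglobin and without the deepest 5% of barcodes.

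The label of radial glia was checked on genes that the rule did not use. Of 22 further radial glia genes, 17 carry a name in the annotation, and they summed to 5229 and 5347 CPM in low-division radial glia, 3794 and 4676 CPM in dividing radial glia and 581 and 548 CPM in neuron-marker cells. Dividing radial glia were the 255 and 211 cells that met the same rule but held at least 3 of the 6 division genes. Neuron-marker cells were the 152 and 203 cells with STMN2, DCX and ELAVL3, at most 2 radial glia genes and neither PAX6 nor GLI3. At 2000 UMIs per cell, low-division radial glia held a median of 3 of the 17 genes in both embryos. Neuron-marker cells held 1. Haemoglobin-rich barcodes, in which haemoglobin made up at least 50% of UMIs, held 1 at 2000 UMIs other than haemoglobin.

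Genes that mark mature astroglia among the 17 were not seen. AQP4, a water channel, GFAP, the astroglial filament protein, and S100B each had 0 UMIs in low-division radial glia of both embryos, where the limit of 3 counts stood at 6.21 and 6.50 CPM. Only 6 and 5 cells met the rule for radial glia genes with at least 3 of the 6 astroglial genes, so no test was run on them. DBI, an acyl-CoA-binding protein, stood at 6549.9 and 9569.7 CPM in those few cells and at 2178 and 2901 CPM in low-division radial glia.

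Markers of other cell types differed by type, and each list is set beside its level in all other barcodes. None (0) of the 5 named microglial genes had a UMI in embryo 1, and in embryo 2 they summed to 6.50 CPM, with AIF1, CSF1R and CX3CR1 at 0, against 50.2 and 63.7 CPM in the other barcodes. The 5 named endothelial genes summed to 8.28 CPM in embryo 1, all of it KDR, and to 0 in embryo 2, against 20.1 and 25.2. The 4 named genes of oligodendrocyte precursors summed to 4.14 and 2.17 CPM against 4.35 and 3.52. All of it was CSPG4, with 2 UMIs and 1, and PDGFRA, SOX10 and NKX2-2 had 0 UMIs in both embryos. The 6 named mural and meningeal genes summed to 139 CPM in embryo 1, above the 92.2 of the other barcodes, and to 4.34 in embryo 2, below their 67.2. COL3A1, a fibrillar collagen, led them with 68.3 CPM in embryo 1, and 22 of its 33 UMIs lay in 1 cell. The 6 named ependymal and choroid plexus genes summed to 29.0 and 60.7 CPM against 709 and 872 in the other barcodes. Most of this was TTR, the thyroxine carrier made by choroid plexus, at 26.9 and 56.4 CPM and detected in 12 and 21 cells, whereas FOXJ1, CLIC6 and CCDC153 had 0 UMIs in both embryos. The 7 named genes of neurogenic progenitors summed to 145 and 251 CPM, more than in the other barcodes (125 and 152) and in dividing radial glia (125 and 142). BTG2, an antiproliferative gene, led them at 114 and 186 CPM. What part these cell types had in the results was not tested.

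The genes that led low-division radial glia over all other barcodes, with at least 100 CPM in each embryo, are likewise a description. GLI3 and PAX6, both used to choose the cells, came first. S100A13, a small calcium-binding protein, stood at 298 and 364 CPM against 91.0 and 79.3 CPM in the other barcodes. SFRP1, a secreted inhibitor of WNT ligands, stood at 2288 and 2211 CPM against 706 and 486. FAM181B stood at 226 and 238 CPM against 65.2 and 65.0. PLPP3, a lipid phosphate phosphatase, DBI, MT3, a metallothionein of the brain, SPARCL1, TRIP6, TSPAN6 and PTN followed, each between 2.77-fold and 3.33-fold higher as the geometric mean of the embryos.

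Whether these cells had left the cell cycle was examined with genes of S phase, the phase in which DNA is replicated, none of which the rule used. Of 22 such genes 18 carry a name. At least 3 of them were detected in 41 of 99 low-division radial glia in embryo 1, or 41.4% (exact 95% interval 31.6 to 51.8), and in 47 of 102 in embryo 2, or 46.1% (36.2 to 56.2). The shares were 63.9% and 61.1% in dividing radial glia and 2.63% and 2.46% in neuron-marker cells. Median depths were 6562 and 6564 UMIs in dividing radial glia and 3921.5 and 3668 in neuron-marker cells.

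At an equal depth of 2000 UMIs per cell the shares of low-division and dividing radial glia lay close to each other. They were 25.5% (17.1 to 35.6) and 27.5% (19.1 to 37.2) in low-division radial glia, with 94 and 102 cells deep enough. They were 22.0% (17.1 to 27.7) and 24.3% (18.6 to 30.7) in dividing radial glia. Neuron-marker cells had 0 of 141 and 0 of 186. Haemoglobin-rich barcodes were set beside them over UMIs other than haemoglobin, since haemoglobin took 73.3% and 74.0% of their UMIs. Whether these barcodes express S-phase genes of their own was not tested. Their medians were then 3212 and 3261 UMIs, and 15.5% and 10.9% of them held 3 S-phase genes. At 2000 such UMIs per cell they had 8.40% (4.27 to 14.5) and 6.12% (1.28 to 16.9). Low-division radial glia counted in the same way had 23.4% (15.3 to 33.3) and 23.5% (15.7 to 33.0), and dividing radial glia 20.5% and 27.6%. Low-division radial glia thus had a higher share than haemoglobin-rich barcodes in both embryos, with intervals that overlapped in embryo 2, and by this count neither radial glia class was the higher in both, whereas at 2000 UMIs of any kind low-division radial glia were. Over all UMIs, low-division cells with 0 division genes and with 1 had 47.6% and 36.8% in embryo 1 and 37.0% and 56.2% in embryo 2, with no common order.

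**Figure D1:**
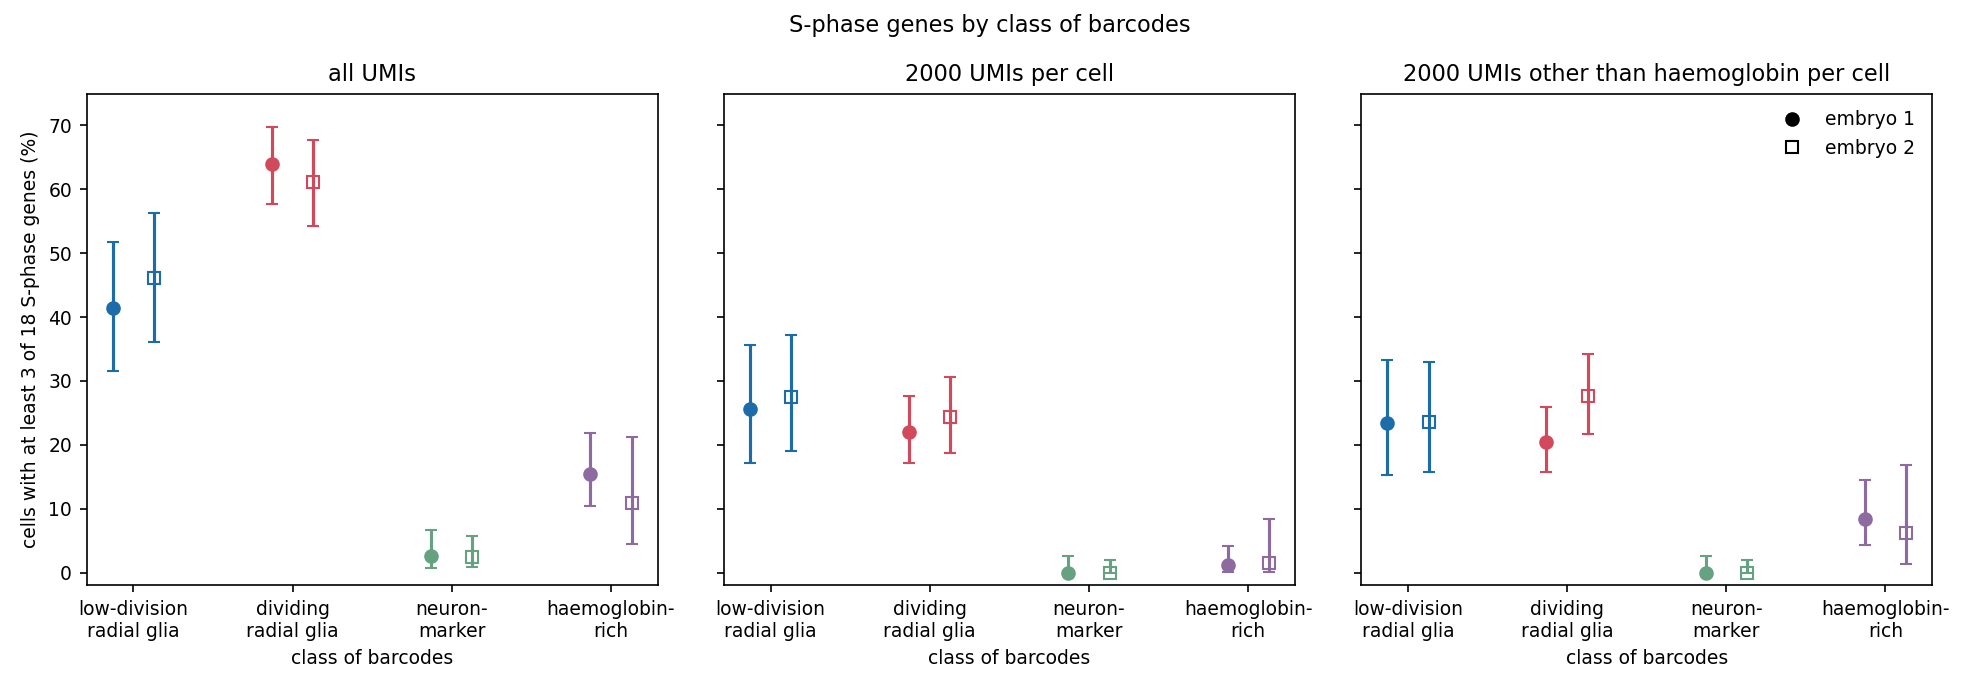
Share of barcodes (vertical axis, percent) with at least 3 of the 18 named S-phase genes in 4 classes of barcodes, for all UMIs (left), after thinning each cell to 2000 UMIs (middle) and to 2000 UMIs other than haemoglobin (right). Filled circles are embryo 1, open squares embryo 2, and bars are exact 95% binomial intervals. At both thinned depths the intervals of low-division and dividing radial glia overlapped and lay above neuron-marker cells, which had 0, and in the right panel haemoglobin-rich barcodes had 8.40% and 6.12%.

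By UMI sums the S-phase genes lay between the other classes. The 18 S-phase genes summed to 832 and 1032 CPM in low-division radial glia, 1031 and 1074 in dividing radial glia and 210.4 and 209 in neuron-marker cells. MCM7, a subunit of the replicative helicase, stood at 273 and 327 CPM in low-division radial glia, 314 and 314 in dividing radial glia and 63.3 and 91.1 in neuron-marker cells. In the test against dividing radial glia, described below, 1 of the 14 S-phase genes tested was higher and 2 were lower, beside 2.71% higher and 7.55% lower over all genes. Their median log2 fold change was −0.19 beside 0.03 over all genes, and 6 had an unadjusted p under 0.05, UNG as higher and CDC45, CDT1, RRM2, TYMS and UHRF1 as lower. DESeq2 called none (0) of the 14. UNG, a uracil-DNA glycosylase, was higher (33.1 and 54.2 CPM against 20.0 and 21.0, log2 fold change 1.02 ± 0.30 SE, adjusted p = 0.0294), but not without the embryo block (adjusted p = 0.0668) or without the filter on low counts (0.0558). CDC45, a part of the active replicative helicase, was lower (10.4 and 21.7 CPM against 51.3 and 56.8, log2 fold change −1.81 ± 0.35, adjusted p = 0.000538). CDT1, which licenses origins, had 6 and 3 UMIs in all and entered the test through dividing radial glia alone, so its place among the 2 lower genes is no support.

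The first comparison asked how low-division radial glia differed from dividing radial glia. Of 5352 genes tested, with the 14 rule genes in the fit left out, 145 (2.71%) were higher and 404 (7.55%) were lower in low-division radial glia in the quasi-likelihood test of edgeR, at 0.05 after adjustment by Benjamini and Hochberg and with the embryo as a block. DESeq2 called 206 genes in all in place of 549, and edgeR called 347 without the embryo block and 566 among the filtered cells. Scaled by library totals, 36.8% of the genes called were higher, against 26.4% with TMM scaling. A gene was tested where at least 2 of the 6 sums of a class and embryo reached 14.1 CPM, 10 counts at their median total. Of the higher genes 13.1%, and of the lower 27.0%, lay below this in both embryos of the class where they were lower. They had to differ, and no p is given for those named. The 10 with the largest decrease were of this kind. Several take part in cell division like the 6 genes that set the classes apart, and they are not independent of the rule. DLGAP5, a spindle protein, had 5 and 1 UMIs in low-division radial glia against 1619 and 1247 in dividing radial glia. CCNA2, the S and G2 cyclin A2, had 2 and 0 against 567 and 471. CIT, a kinase of cytokinesis, had none (0 and 0) against 154 and 156, so it was at least 9.93-fold and 11.2-fold lower against a limit of 3 counts in each embryo. KIF4A, CDCA8, TACC3 and TTK had 0 to 2 UMIs per embryo. UBE2T, DEPDC1B and NEIL3 had 0.

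Several calls depended on the processing. Over the alternative settings 36 genes that passed were followed. DESeq2 did not call 18, which were APOE, CDC45, CDKN1C, CDT1, CRYM, DCLK1, DKK3, FAM181B, FBXO32, GJA1, LDHB, LIMA1, MOXD1, PTN, S100A13, TTR, UNG and ZIC1. Without the embryo block 13 did not pass, which were DBI and 12 of those 18, all but APOE, CDC45, DCLK1, FAM181B, FBXO32 and S100A13. When each cell was thinned to 2000 UMIs before the classes were formed anew, 34 and 38 low-division and 46 and 24 dividing cells were left. Only 18 of the 36 genes had enough counts to be tested there, and of these CHL1, DBI, FAM181B, FAT4, LDHB, SHD, SOX4, SPARCL1 and STMN2 did not pass.

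Genes higher in low-division radial glia were fewer, and several rested on few cells. SPARCL1, a secreted matrix protein of the SPARC family, stood at 205 and 169 CPM against 16.4 and 16.3 CPM (log2 fold change 3.46 ± 0.22 SE, adjusted p = 3.05e-12). It was detected in 10 cells of each embryo, and the cell with most held 35.4% and 26.9% of its UMIs. Among the thinned cells its log2 fold change was 0.57 (adjusted p = 0.825). CRABP1, an intracellular binder of retinoic acid, stood at 99.4 and 229.8 CPM against 13.6 and 37.3 (2.66 ± 0.20, adjusted p = 1.39e-10). In embryo 1, 42 of its 48 UMIs lay in 1 cell, and in embryo 2, 78 of 106. GJA1, the gap junction protein connexin 43, stood at 114 and 21.7 CPM against 26.4 and 16.3 (1.56 ± 0.30, adjusted p = 0.000686), and in embryo 1, 28 of its 55 UMIs lay in 1 cell. CRYM, a thyroid hormone-binding protein, stood at 45.6 and 67.2 CPM against 8.01 and 38.7 (1.33 ± 0.32, adjusted p = 0.00680), with 54.5% and 51.6% of its UMIs in 1 cell. SPARCL1 was also detected in a higher share of low-division than of dividing radial glia (10.1% and 9.80% against 5.10% and 4.27%). CRABP1 was not (6.06% and 9.80% against 6.67% and 13.7%), nor was GJA1 (13.1% and 9.80% against 17.6% and 13.7%).

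S100A13 and FAM181B, among the leading genes above, were detected in more cells. S100A13 stood at 298 and 364 CPM against 180.3 and 219.9 in dividing radial glia (0.68 ± 0.13, adjusted p = 0.000479), and was found in 66 and 68 cells, with at most 5.56% and 4.76% of its UMIs in 1 cell. FAM181B stood at 226 and 238 CPM against 109.8 and 150.5 (0.80 ± 0.16, adjusted p = 0.000861), in 54 and 51 cells. FAM181B did not pass among the filtered cells (adjusted p = 0.0653) or the thinned cells (0.373), whereas S100A13 passed in both (0.00207 and 0.00540).

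FBXO32, a subunit of a ubiquitin ligase, DCLK1, a microtubule-associated kinase, and LIMA1, an actin-binding protein, were spread over more cells than SPARCL1. FBXO32 was detected in 23 and 19 cells and stood at 58.0 and 84.6 CPM against 28.0 and 35.4 (1.11 ± 0.26, adjusted p = 0.00546). DCLK1 was detected in 21 and 19 and LIMA1 in 21 and 14. None of these 3 passed among the filtered cells, where their adjusted p were 0.129, 0.408 and 0.219. CHL1, an adhesion molecule of the L1 family, stood at 55.9 and 47.7 CPM against 15.6 and 21.4 (1.44 ± 0.30, adjusted p = 0.00161), and SHD, an adaptor with an SH2 domain, at 37.3 and 82.4 against 23.6 and 27.0 (1.17 ± 0.26, adjusted p = 0.00351). Among the thinned cells their log2 fold changes were 1.11 and 3.39 (adjusted p = 0.657 and 0.436). In embryo 1, 1 cell held 37.0% of the CHL1 UMIs and 38.9% of the SHD UMIs. Both genes stood higher in neuron-marker cells, CHL1 at 541.0 and 350.3 CPM and SHD at 224.6 and 263.0, and so did DCLK1 at 93.3 and 118.9. What part RNA of neurons had in these differences was not tested.

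**Figure D2:**
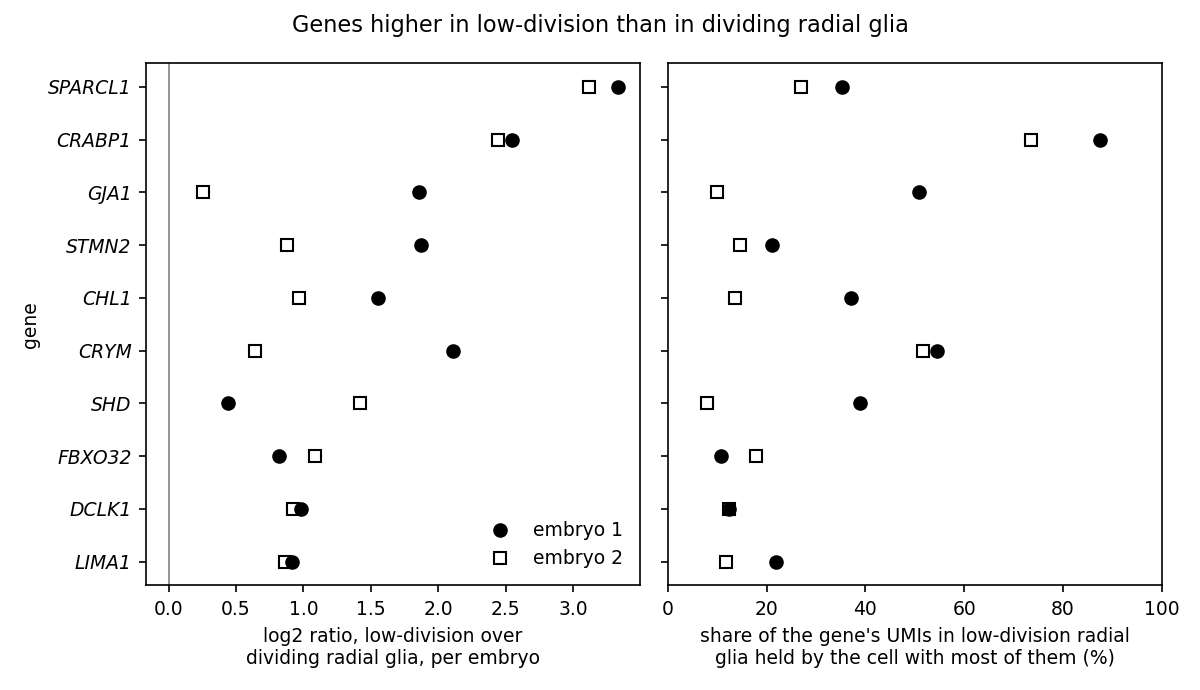
The 10 genes with the highest log2 fold change in low-division over dividing radial glia among those that passed the test with a mean of at least 50 CPM. The left panel gives the log2 ratio in each embryo (scaled by TMM, with a prior of 2 counts), and the right panel the percentage of the gene's UMIs in low-division radial glia that lay in the cell with most of them. Filled circles are embryo 1 and open squares embryo 2. Every ratio lies above 0 because only genes with the same direction in both embryos were taken. For CRABP1 1 cell held 87.5% and 73.6% of the UMIs.

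STMN2, a microtubule regulator of neurons, was higher in low-division radial glia at 433 and 267 CPM against 102 and 132 (1.53 ± 0.15, adjusted p = 1.39e-08). Neuron-marker cells held 3849 and 3437 CPM. STMN2 was detected in 38.4% and 30.4% of low-division radial glia and 36.9% and 38.9% of dividing radial glia. At 2000 UMIs other than haemoglobin it was detected in 26.6% and 18.6% of low-division radial glia, 14.6% and 19.5% of dividing radial glia and 55.7% and 61.2% of haemoglobin-rich barcodes. At this equal depth the share in low-division radial glia lay below that of haemoglobin-rich barcodes in both embryos. Whether those barcodes express STMN2 of their own was not tested. The level over UMIs other than haemoglobin was 446 and 267 CPM in low-division radial glia and 1219 and 1618 CPM in haemoglobin-rich barcodes. Among the thinned cells the log2 fold change against dividing radial glia was 0.74 (adjusted p = 0.435). The other named neuron markers were rarer, DCX in 2 and 6 cells and ELAVL3 in 4 and 3, and neither passed the test. What part STMN2 from other cells had in the difference was not tested.

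From the list of G1 and cell cycle exit 1 of 10 genes tested passed against dividing radial glia, and from the list of SOX and other progenitor factors 2 of 19, all 3 of them higher, beside 2.71% over all genes. CDKN1C, the cyclin-dependent kinase inhibitor p57, stood at 166 and 516 CPM against 125 and 232 (0.85 ± 0.19, adjusted p = 0.00343), with log2 ratios of 0.22 and 1.01 in the 2 embryos. It did not pass with DESeq2 (adjusted p = 0.879) or without the embryo block (0.151), while its log2 fold change was 2.20 among the filtered cells and 2.78 among the thinned cells. Over all UMIs CDKN1C was detected in 22.2% and 28.4% of low-division and 22.4% and 27.0% of dividing radial glia. In low-division radial glia the cell with most held 22.5% and 22.3% of the CDKN1C UMIs. At 2000 UMIs other than haemoglobin CDKN1C was detected in 16.0% and 17.6% of low-division and 10.6% and 13.3% of dividing radial glia. It was detected in 18.3% and 38.8% of haemoglobin-rich barcodes. Its share thus lay below that of haemoglobin-rich barcodes in both embryos, with overlapping intervals. Whether those barcodes express CDKN1C of their own was not tested. The level of haemoglobin-rich barcodes over such UMIs was 373 and 289 CPM, above low-division radial glia in embryo 1 (171) and below them in embryo 2 (516). The cyclins CCND2 (619 and 1132 CPM) and CCND1 (309 and 459.6 CPM) did not pass, with 675 and 789.7 CPM and 294 and 365 CPM in dividing radial glia. SOX4 was higher (613 and 728 CPM against 421 and 448, 0.58 ± 0.10, adjusted p = 0.000162), and so was ZIC1, a zinc finger factor of dorsal progenitors (51.8 and 36.9 CPM against 26.0 and 21.0, adjusted p = 0.0486). ZIC1 did not pass with RLE scaling (adjusted p = 0.0507), without the filter on low counts (0.172), without the embryo block (0.115) or with DESeq2 (0.668).

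Signalling lists held few differences in the same test. By edgeR none (0) of the 7 Notch genes tested passed, with 3 at an unadjusted p under 0.05, and none (0) of the 3 BMP genes, with 1. Of the 2 Hedgehog and 2 FGF genes tested none (0) passed, and none (0) had an unadjusted p under 0.05. DESeq2 called none (0) in these 4 lists. Of 13 WNT genes 1 passed, DKK3, a secreted member of the Dickkopf family, at 89.0 and 84.6 CPM against 35.7 and 55.4 (0.90 ± 0.25, adjusted p = 0.0188). The medians of the log2 fold change were 0.27 for the Notch list and −0.01 for the WNT list, beside 0.03 over all genes tested. The counts lay near the background of 2.71% higher and 7.55% lower, and a missed threshold did not show that levels were alike. Of 6 genes tested from the outer radial glia list, which names genes of a progenitor class outside the ventricular zone, MOXD1 passed (70.4 and 23.8 CPM against 19.2 and 18.6, adjusted p = 0.0191), but not among the filtered cells (adjusted p = 0.169). HOPX had 0 and 1 UMI in low-division radial glia, and FAM107A, PDGFD and HEPACAM had 0.

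FAT4, an atypical cadherin of the apical surface, was lower at 449 and 509.5 CPM against 607 and 674 (−0.47 ± 0.09, adjusted p = 0.000686), with −0.21 among the thinned cells (adjusted p = 0.733). The other 9 genes tested from the list of apical junction and cilium did not pass. APOE, which carries lipids, stood at 8.28 and 4.34 CPM, from 4 and 2 UMIs, against 22.0 and 23.8 CPM, with no test given because it entered through dividing radial glia alone. PTN, a secreted growth factor, passed (adjusted p = 0.0128) at 2025 and 1195 CPM against 994 and 1189.8, with log2 ratios of 0.83 in embryo 1 and −0.13 in embryo 2, and did not pass among the filtered cells (adjusted p = 0.351). DBI (adjusted p = 0.00953) and LDHB (adjusted p = 0.0401) did not pass there either (adjusted p = 0.855 and 0.557). TTR passed as lower (adjusted p = 0.00650) but stood at 26.9 CPM against 781 in embryo 1 and at 56.4 CPM against 14.9 in embryo 2, opposite directions.

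The comparison with neuron-marker cells set the selected cells against differentiated cells of the same brains. Of 5349 genes tested, without the 17 rule and neuron-marker genes in the fit, 1026 (19.2%) were higher and 942 (17.6%) were lower in low-division radial glia. DESeq2 called 991 genes in place of 1968, and library totals gave 39.3% of calls higher against 52.1%. Of the higher genes 29.2%, and of the lower 25.4%, lay below 14.1 CPM in both embryos of the class where they were lower, so the list counts below are descriptions, to be read beside 19.2% higher and 17.6% lower over all genes. Over the alternative settings 92 genes that passed were followed. DESeq2 did not call 18, which were BARHL2, CDKN1B, CDKN1C, CDT1, CNPY1, DCLK1, GLDC, GLUL, HBA1, ID2, IRX3, JAG1, MCM2, PEA15, POU3F2, RBPJ, RRM2 and SMAD5. Among the thinned cells 31 of the 92 were tested, and BTG2, RBPJ, TJP1 and ZEB1 did not pass. Higher genes included PLPP3 (118 and 119 CPM against 3.16 and 2.53), S100A6, a calcium-binding protein (193 and 173 CPM against 4.75 and 10.1) and TRIP6, an adaptor of focal adhesions (112 and 115 CPM against 6.33 and 3.79). LFNG, SOX9, MCM3, MCM5, CRYM, SPARCL1 and GJA1 were also among the 10 with the highest fold at a mean of at least 50 CPM, with 0 to 4 UMIs per embryo in neuron-marker cells. All 10 entered the test through the radial glia classes and are given with no test.

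Of 20 named genes of Notch signalling 7 were tested against neuron-marker cells. LFNG, NOTCH1 and HES1 had 0 to 3 UMIs per embryo there and entered the test through the radial glia classes, so they are given as levels. LFNG, which modifies Notch receptors, stood at 74.5 and 73.7 CPM, from 36 and 34 UMIs, against 1 and 3 UMIs in neuron-marker cells. The receptor NOTCH1 stood at 16.6 and 23.8 CPM against 0 and 1.26. Its target HES1 stood at 16.6 and 26.0 CPM against none (0), at least 3.49-fold and 6.86-fold higher. RBPJ, the DNA-binding partner of the pathway (118 and 152 CPM against 99.7 and 72.1, adjusted p = 0.00309), passed as higher, but DESeq2 did not call it. DTX4 and the ligand JAG1 also lay below 14.1 CPM in neuron-marker cells. DTX4 stood at 29.0 and 30.4 CPM against 6.33 and 6.32, and JAG1 had 11 and 6 UMIs against 4 and 6. DLL3, an inhibitory ligand, did not pass (16.6 and 17.3 CPM against 9.49 and 10.1).

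Receptors of growth factors followed. FGFR2 stood at 58.0 and 39.0 CPM against 1 and 5 UMIs, or 1.58 and 6.32 CPM, and FGFR3 at 26.9 and 21.7 CPM against none (0), at least 5.67-fold and 5.71-fold higher. BOC, a Hedgehog co-receptor, stood at 155 and 106 CPM against 12.7 and 20.2 (3.09 ± 0.29, adjusted p = 4.68e-09), while IFT88 did not pass (35.2 and 21.7 CPM against 15.8 and 20.2). From the WNT list 7 of 13 were higher and 2 lower. SFRP1 stood at 2288 and 2211 CPM against 165 and 128 (4.11 ± 0.11, adjusted p = 7.51e-20). The receptor FZD2 (116 and 113 CPM, from 56 and 52 UMIs, against 12 and 15 UMIs) was also higher, with FZD10 and DKK3. WNT5A, LRP5 and TCF7L1, also counted as higher, lay below 14.1 CPM in neuron-marker cells and are given with no test. The transcription factor TCF7L2 (128 and 73.7 CPM against 696 and 543) was lower. LEF1, counted as lower, had 3 and 2 UMIs in low-division radial glia, below 14.1 CPM, and is given with no test. Of 3 BMP genes, SMAD5 was higher, but DESeq2 did not call it (adjusted p = 0.252), and ID2 stood at 24.8 and 19.5 CPM against 9.49 and 7.59, below 14.1 CPM in neuron-marker cells. SMAD5 also missed 0.05 at 1000 genes per barcode (adjusted p = 0.0574), without the filter on low counts (0.0690) and with library totals (0.0623).

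The radial glia genes outside the rule are given as levels, because neuron-marker cells were chosen to hold at most 2 radial glia genes and neither PAX6 nor GLI3. Among them HES1, NOTCH1 and SOX9 had 0 to 2 UMIs per embryo in neuron-marker cells. DBI stood at 2178 and 2901 CPM against 202 and 191. SOX9, a transcription factor of glial progenitors, stood at 53.8 and 52.0 CPM from 26 and 24 UMIs against 1 and 2 UMIs. QKI, an RNA-binding protein (443 and 462 CPM against 99.7 and 110.0), PTPRZ1, a receptor phosphatase (288 and 325 CPM against 114 and 83.5), and PHGDH, the first enzyme of serine synthesis (178 and 329.6 CPM against 15.8 and 50.6), had higher levels in both embryos too. Of 10 matrix genes 7 were higher, among them the collagen COL4A1 and the integrins ITGA6 and ITGB1 (224 and 236 CPM against 131 and 118). SPARC, SPARCL1, SDC2 and the laminin chain LAMA1, also counted as higher, lay below 14.1 CPM in neuron-marker cells and are given with no test. VCAN did not pass (78.7 and 54.2 CPM against 69.6 and 72.1).

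**Figure D3:**
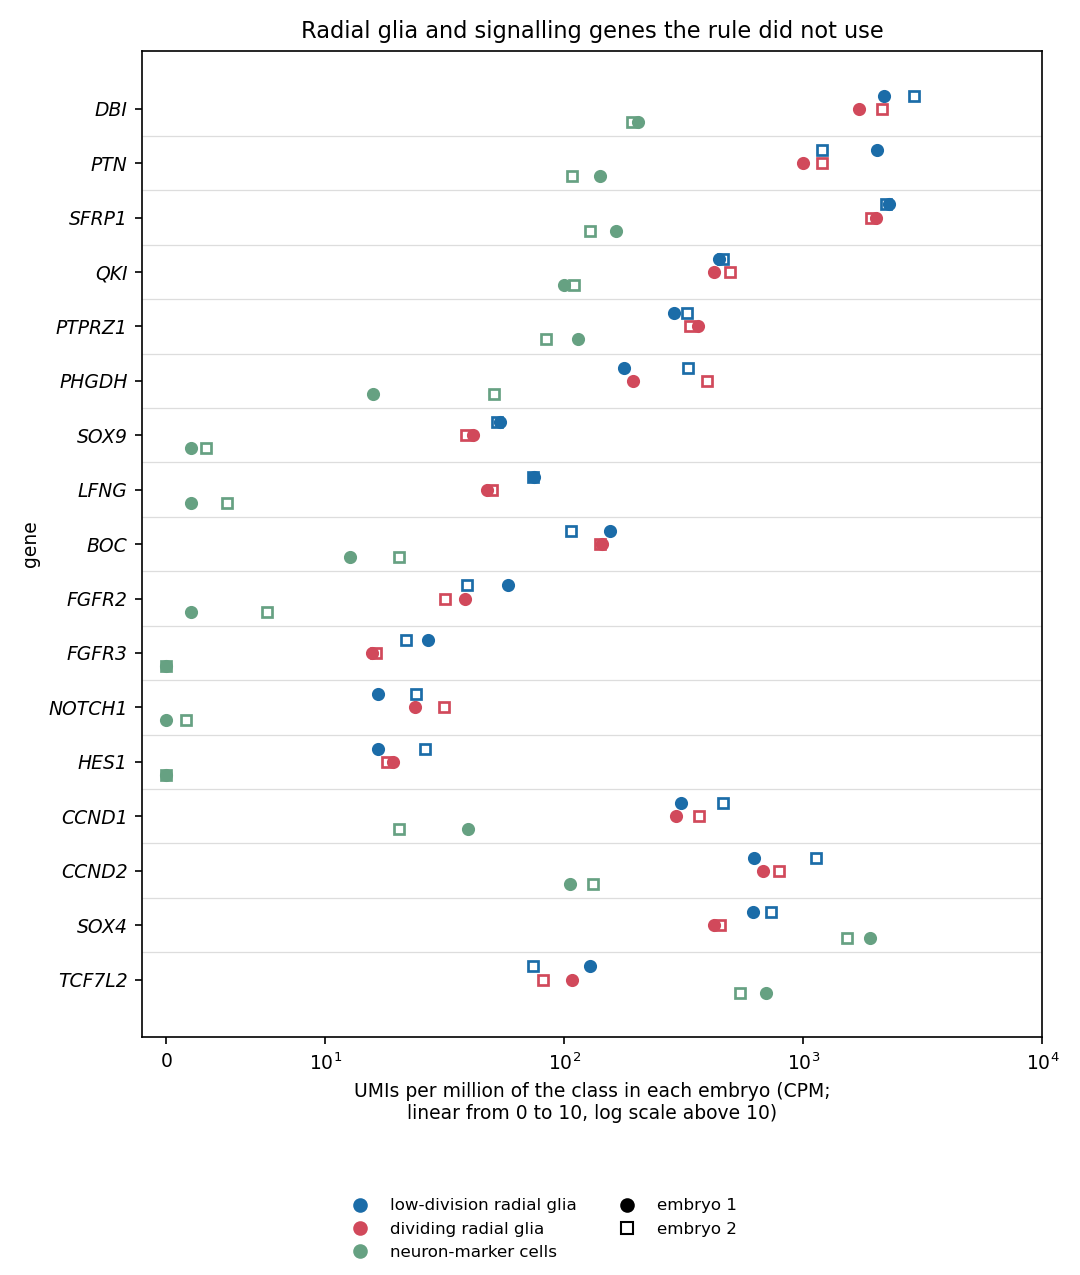
Levels of 17 genes that the rule did not use (CPM, horizontal axis, linear from 0 to 10 and logarithmic above) in low-division radial glia, dividing radial glia and neuron-marker cells. Filled circles are embryo 1 and open squares embryo 2. The first 15 genes were higher in both radial glia classes than in neuron-marker cells in both embryos, whereas SOX4 and TCF7L2 stood highest in neuron-marker cells.

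Of the S-phase list 13 of 14 genes tested and of the G1 list 5 of 10 were higher than in neuron-marker cells, 19.2% being higher over all genes. Of these 13 S-phase genes only MCM7 and HELLS reached 14.1 CPM in neuron-marker cells. The others, such as MCM3, RRM2 and CDC45, lay below it there in both embryos and had to differ. The first count is thus largely fixed by the filter on low counts and is no support. CCND1 stood at 309 and 459.6 CPM against 39.5 and 20.2 (3.88 ± 0.22, adjusted p = 5.06e-13) and CCND2 at 619 and 1132 against 106 and 132. CDK4 and BTG2 were higher. CDK6, also counted as higher, had 7 and 14 UMIs in low-division radial glia. It lay below 14.1 CPM in neuron-marker cells and is given with no test. The inhibitors CDKN1B and CDKN1C were lower, CDKN1B not with DESeq2 (adjusted p = 0.165). CDKN1C stood at 166 and 516 CPM against 577 and 601 (adjusted p = 0.00387), with log2 ratios of −1.68 and −0.12, and did not pass with DESeq2 (adjusted p = 0.303) or without the embryo block (0.149). Of 9 genes of lipid and amino acid metabolism 7 were higher, such as LDHA and GLUL, glutamine synthetase, the latter not with DESeq2 (adjusted p = 0.104). GLDC and MGST1, also counted as higher, lay below 14.1 CPM in neuron-marker cells and are given with no test. FABP5, a fatty acid-binding protein, was lower (493 and 544 CPM against 879.5 and 1090.1).

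Lower genes are given by the 10 with the largest decrease among those with a mean of at least 50 CPM in neuron-marker cells. SST, the neuropeptide somatostatin, had 1 and 2 UMIs in low-division radial glia against 173 and 368, the largest of these decreases. The haemoglobins HBE1 (log2 fold change −5.62) and HBG1 (−5.35) came next, but did not pass among the filtered cells (adjusted p = 0.339 and 0.621). NEUROD6, a factor of cortical neurons, had 2 and 7 UMIs against 311 and 144, below 14.1 CPM in embryo 1. SLC17A6, the vesicular glutamate transporter of many subcortical neurons, had 3 and 2 UMIs against 87 and 58. LHX9, LINGO1, GNG8, SRRM3 and NFL, a name used by the annotation, completed the list. Like SST and SLC17A6, they lay below 14.1 CPM in low-division radial glia of both embryos, so no test is given for them. SOX4 was lower than in neuron-marker cells (1906 and 1524 CPM there, −1.20 ± 0.10, adjusted p = 3.98e-10).

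The cells varied among themselves in which of the 2 defining factors they held. PAX6 alone was detected in 45 and 56 cells, GLI3 alone in 31 and 30, and both in 23 and 16, shares of 45.5% and 54.9%, 31.3% and 29.4%, and 23.2% and 15.7%. At 2000 UMIs both were detected in 5.32% and 5.88%, and cells with 1 factor cannot be told from cells in which the other was missed. The 2 sets had medians of 4579 and 4027.5 UMIs (PAX6 only) and 4212 and 4749 UMIs (GLI3 only).

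Between PAX6-only and GLI3-only cells 2056 genes were tested, of which 6 (0.292%) were higher and 10 (0.486%) lower in PAX6-only cells. DBI stood at 2475 and 3667 CPM in PAX6-only cells against 1475 and 1422 CPM in GLI3-only cells (1.01 ± 0.13, adjusted p = 1.65e-07). SFRP1 stood at 2386 and 2605 CPM against 1656 and 1045 (0.85 ± 0.13, adjusted p = 2.74e-05). PTN stood at 2367 and 1498 against 1803 and 805 (0.56 ± 0.13, adjusted p = 0.0111). STMN2 stood at 778 and 361 CPM against 60.3 and 208 (1.94 ± 0.32, adjusted p = 5.55e-05), and was detected in 44.4% and 32.1% against 22.6% and 30.0% of cells. At 2000 UMIs other than haemoglobin these shares were 36.6% and 23.2% against 12.9% and 13.3%, below haemoglobin-rich barcodes in both sets. Among the thinned cells DBI (adjusted p = 0.0865), SFRP1 (log2 fold change 0.47, adjusted p = 0.770) and PTN (adjusted p = 0.163) did not pass, and STMN2 was not tested. Each of these 4 genes was higher in PAX6-only cells of both embryos, although for PTN the higher GLI3-only value lay above the lower PAX6-only value. The same direction in both embryos was required of genes named for the largest changes.

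GLI3-only cells were higher in CDKN1C, at 416 and 896 CPM against 65.2 and 302 (log2 fold change −1.97 ± 0.25, adjusted p = 1.47e-07), and in CCND1, at 476 and 636 CPM against 224 and 361 (−0.99 ± 0.21, adjusted p = 0.00298). Among the thinned cells CCND1 did not pass (−0.43, adjusted p = 0.936), and CDKN1C was not tested. CDKN1C was detected in 41.9% and 50% of GLI3-only and 11.1% and 21.4% of PAX6-only cells. At 2000 UMIs other than haemoglobin its share in GLI3-only cells was 35.5% and 26.7%, above haemoglobin-rich barcodes (18.3%) in embryo 1 and below them (38.8%) in embryo 2. IRX5, a homeobox factor of midbrain, diencephalon and hindbrain, stood at 141 and 169 CPM against 41.9 and 33.6. CNPY1, a regulator of FGF signalling at the boundary of midbrain and hindbrain, stood at 107 and 84.4 CPM from 16 and 13 UMIs against 1 and 4 UMIs. HS3SB, FBXL17, CRYM, NGAP and MARCKS, as the annotation names them, were also higher in GLI3-only cells. In this fit the limit for a gene to be tested was 65.97 CPM in at least 2 of the 6 sums, and IRX5, CNPY1, HS3SB, FBXL17 and CRYM, 5 of the 10 lower genes, lay below it in PAX6-only cells of both embryos, so no test is given for them. Without the embryo block 5 genes passed, and CDKN1C (adjusted p = 0.171), CCND1 (0.115), PTN (0.994), NGAP and MARCKS did not. With library totals STMN2 (adjusted p = 0.0959), PTN (0.0556), CCND1 (0.0959), NGAP and MARCKS did not pass. DESeq2 called 3 genes in all, DBI, SFRP1 and CDKN1C, and library totals as the scale called 4, 2 of them higher in PAX6-only cells against 6 of 16 with TMM scaling. MARCKS did not pass among the filtered cells (adjusted p = 0.161).

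**Figure D4:**
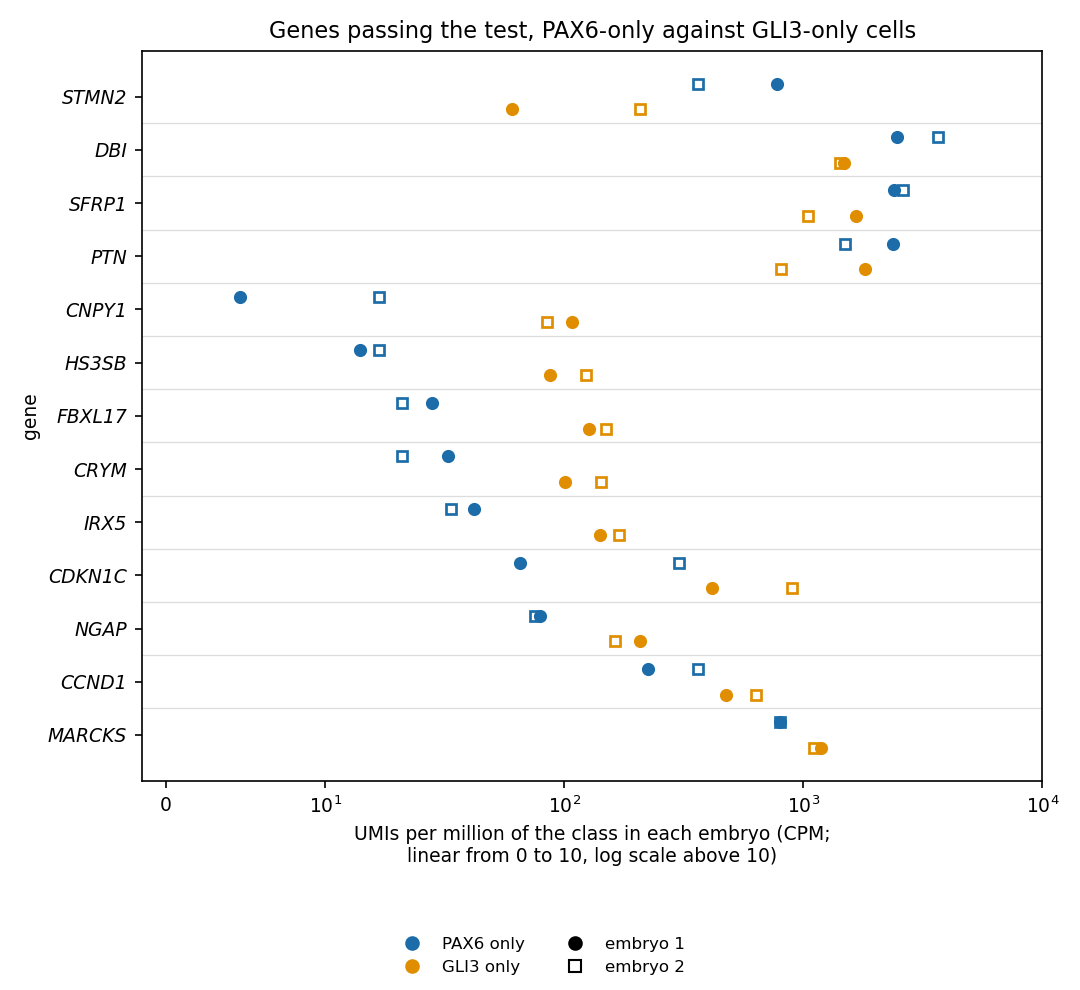
Levels (CPM, linear from 0 to 10 and logarithmic above) in PAX6-only and GLI3-only low-division radial glia of the 13 genes named for this test, with filled circles for embryo 1 and open squares for embryo 2. STMN2, DBI, SFRP1 and PTN stood higher in PAX6-only cells of each embryo, and the other 9 genes stood higher in GLI3-only cells. These 13 genes were chosen with the same direction in both embryos, so that agreement was fixed by the choice.

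Regional factors were sparse. PAX3, a factor of the dorsal midbrain, hindbrain and spinal cord, was detected in 14 and 12 cells, or 14.1% (exact 95% interval 7.95 to 22.6) and 11.8% (6.23 to 19.6), against 5.95% and 6.25% of haemoglobin-rich barcodes. CNPY1 was detected in 8.08% and 7.84%, against 2.98% and 0%. OTX2 (7.07% and 6.86% against 5.36% and 12.5%) and SIX3 lay at or below the haemoglobin-rich share in embryo 2, and so did IRX3 (13.1% and 9.80% against 10.1% and 10.9%). IRX5 was detected in 18.2% and 17.6%, against 10.1% and 17.2%. Over UMIs other than haemoglobin its level was 68.3 and 86.8 CPM against 46.0 and 74.6. At 2000 such UMIs per cell PAX3 was detected in 7.45% and 6.86% of low-division radial glia against 3.82% and 2.04%, with overlapping intervals, and IRX5 in 9.57% and 10.8% against 8.40% and 4.08%.

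**Figure D5:**
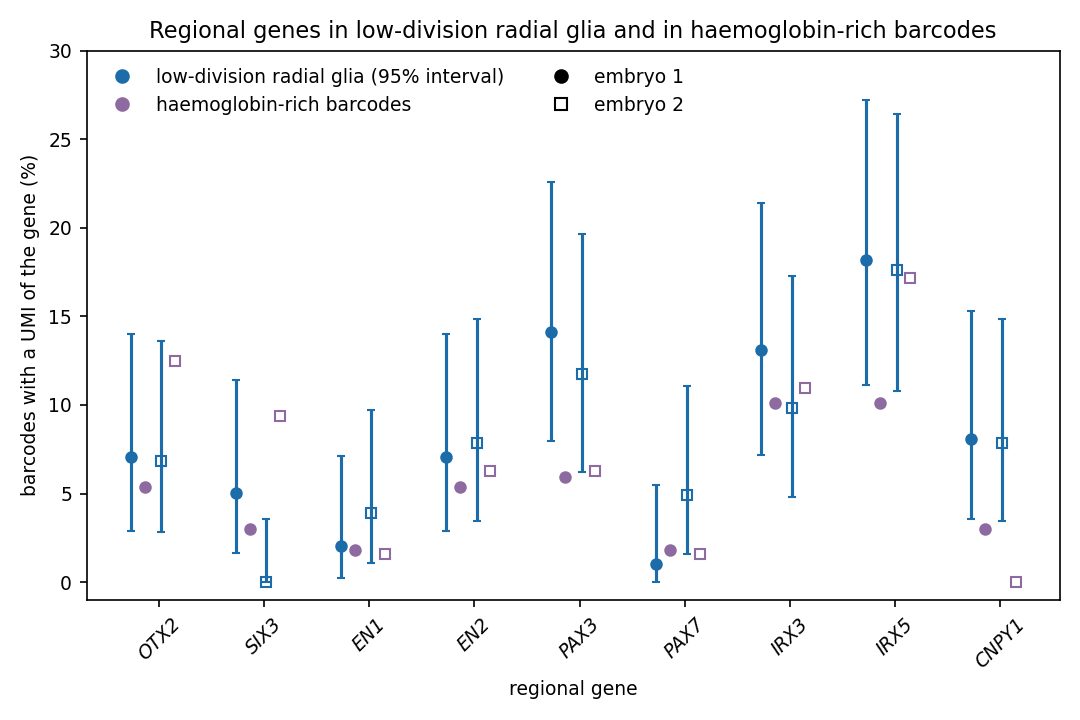
Percentage of barcodes with a UMI of 9 regional genes in low-division radial glia, with exact 95% binomial intervals, and in haemoglobin-rich barcodes, whose medians other than haemoglobin were 3212 and 3261 UMIs. Filled circles are embryo 1 and open squares embryo 2. PAX3, CNPY1, EN1, EN2 and IRX5 stood higher by share in low-division radial glia in both embryos. By level over UMIs other than haemoglobin, EN2 alone of these genes was lower (17.1 and 26.0 CPM against 17.7 and 37.3). In embryo 2 the intervals of OTX2, EN1, EN2, PAX3, IRX3 and IRX5 span the haemoglobin-rich share. Those of OTX2, EN1, EN2 and IRX3 also do in embryo 1.

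The study singles out BMP7, a bone morphogenetic protein, COL9A1, a collagen chain, and DIO2, an enzyme that activates thyroid hormone, for their levels in human fetal radial glia. BMP7 had 0 UMIs in low-division radial glia of both embryos, at limits of 6.21 and 6.50 CPM, and 0 in dividing radial glia, at limits of 1.20 and 1.40 CPM. COL9A1 likewise had 0 in both classes. Over all barcodes BMP7 had 3 and 4 UMIs and COL9A1 had 1 and 6. Expression of either was thus not detectable in these cells at this depth. DIO2 is not a name in the annotation.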

How the data were processed

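The authors dissociated whole brains, made 1 library per embryo with the 10x Chromium 3′ kit (v3 chemistry) and ran Cell Ranger 3.1.0 against the TS_2.0 assembly. They deposited raw UMI counts per gene model and barcode, without normalization, and the labels also name fastp and Seurat 3. Here models of one name were summed, which took 23975 models to 18543 names, with Python 3.11.15. Total counts were 41868023 and 38077767. Counting intervals and the limit of 3 counts cover counting error only. For each class and embryo the counts were summed and compared in edgeR 4.0.16 (R 4.3.3; TMM, filterByExpr, quasi-likelihood, embryo as a block, Benjamini-Hochberg, 0.05), and fold changes are log2 with their standard error. Low-division, dividing and neuron-marker cells shared 1 fit (common biological coefficient of variation 0.0907). Per-embryo ratios used a prior of 2 counts. The embryo pairs the classes because both come from 1 animal.

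Only 3 of 7 planned neuron markers carry a name, so the gate of 4 was replaced by all 3. The planned comparison of cells by region, and some single genes, are not reported here. Doublets were not called, and the filtered cells stand in for that. The members and gene lists were chosen with earlier results of these data known. Named genes were the rule genes, list members that passed or had the highest CPM, the 10 with the largest change in each direction (mean of at least 50 CPM in the higher class, same direction in both embryos), the 15 leading genes, and BMP7, COL9A1 and DIO2. Alternatives were RLE, no count filter, DESeq2 1.42.0, no block, at least 1000 genes, thinning to 2000 UMIs, the filtered cells, leaving out each embryo and, added after the data were seen, library totals and counts without haemoglobin. On simulated 4-fold changes in 200 genes, 76.5%, 76% and 79% were recovered (dividing, neuron-marker and PAX6 against GLI3; 5004, 5080 and 2120 genes), with false calls of 6.71%, 5% and 1.25%. The simulation gave all genes the same spread, wider than the common spread of the fits, and no difference between embryos. Its rates therefore need not hold for the tests above.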

Additional observations from a re-analysis of the deposited data

How the results depend on the processing

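The tests rest on 2 embryos, so leaving 1 out leaves values with no test. Genes called against dividing radial glia numbered 549, and 206 with DESeq2, 347 without the replicate block and 142 after thinning, where 1593 genes were tested. Against neuron-marker cells 1968 genes passed, and 991 with DESeq2 and 459 after thinning (1590 tested). Between PAX6-only and GLI3-only cells 16 passed, and 3 with DESeq2, 5 without the block, 4 by library totals, 0 after thinning (24 of 460 at unadjusted p under 0.05) and 28 without the filter on counts. Without the block the calls against neuron-marker cells were 1727. Library totals raised the higher share of calls from 26.4% to 36.8% against dividing radial glia and lowered it from 52.1% to 39.3% against neuron-marker cells, where the median log2 fold change of all genes moved to −0.16. The causes were not tested. The planned test against cells with astroglial genes, and its alternatives, were not run, with 6 and 5 such cells.

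Low-division radial glia numbered 201, and 87 with at least 5 radial glia genes, 96 with 0 division genes, 72 when thinned before the rule, and 99 to 102 in 1 embryo alone. Their share of 1.27% became 1.63% at 1000 genes, 0.546% with 5 radial glia genes, 0.599% with 0 division genes and 0.569% thinned. After thinning, the share with 3 S-phase genes fell from 43.7% to 26.5% (23.5% at 2000 UMIs other than haemoglobin), PAX6 only from 50.2% to 29.9%, GLI3 only from 30.4% to 23.6% and both from 19.5% to 5.60%. With 1 embryo left out, the log2 ratio against dividing radial glia ranged from −0.13 (embryo 2) to 0.83 (embryo 1) for PTN and from −4.96 (embryo 1) to 1.68 (embryo 2) for TTR, and that against neuron-marker cells from −6.40 (embryo 2) to 0.13 (embryo 1) for HBA1. HBG1 turned to 0.34 among the filtered cells. The other named genes that passed a test kept their sign in each embryo in that comparison. For genes named for the largest changes this was a condition of the choice. With DESeq2 46 results for named genes missed the 0.05 threshold and 95 kept their side of it, and without the block 22 missed it and 119 kept their side.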
